A study of Mus musculus with 6 samples.

Results

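The matrix metalloproteinases (MMPs) and their tissue inhibitors (TIMPs) were followed in bone marrow-derived macrophages (BMMs) that were turning into osteoclasts with or without rGDF11. The genes are *Mmp2*, *Mmp8*, *Mmp9*, *Mmp12*, *Mmp13*, *Mmp14*, *Mmp19*, *Timp1*, *Timp2* and *Timp3*, 10 of the 19938 genes that a probe set read alone. They were chosen by name, and each was read from its only probe set paired with a single symbol, so the choice of the brightest probe set was never needed. BMMs came from tibial marrow of mice (female C57BL, per the methods), whose age is 9 weeks per the labels and a range up to that age per the methods, and were expanded in M-CSF, the macrophage growth factor. All 6 samples were then kept for 24 h with M-CSF at 100 ng/ml and with RANKL, the cytokine that drives osteoclast formation, at 50 ng/ml. The vehicle group (RANKL alone, 3 samples) was labelled vehicle control and had no rGDF11. The rGDF11 group (3 samples) had 100 ng/ml recombinant GDF11, a ligand of the TGF-β superfamily. No array of BMMs without RANKL was analysed here, so the response to RANKL itself cannot be read. The samples are labelled biological replicates without saying if the mice differed, so a p-value covers only the variation seen among these samples, which may be technical.

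MMPs are zinc proteases that are made as inactive precursors and together cut most proteins of the extracellular matrix. TIMPs bind the active site of MMPs and block it, and TIMP2 also helps membrane-bound MMP14 to activate pro-MMP2. In bone, osteoclasts are known for abundant MMP9 and for MMP14 at their adhesion and migration front, whereas the mineral-free collagen left in resorption pits is cut by cathepsin K and by collagenases such as MMP13. Macrophages are known for MMP12, which cuts elastin.

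The arrays, Affymetrix Mouse Gene 1.0 ST, measured total RNA, and values are log2 levels from the robust multichip average (RMA), 1 per probe set. The median of the 23410 tested probe sets lay between 6.11 and 6.18 on each array, and arrays correlated at 0.997 to 0.998 within groups and at 0.989 to 0.991 between groups, over probe sets that are not independent of each other. The 10 macrophage markers all had means above the median of the tested rows, and their mean log2 level was 10.80 to 10.86 on vehicle arrays and 10.45 to 10.54 on rGDF11 arrays. Of 10 osteoclast markers, 7 rose and none fell by limma. At an unadjusted p under 0.05, 8 were higher and 0 lower, and by the methods' t-test 7 and 0. *Acp5* (log2 fold change 1.87), *Nfatc1* (1.33) and *Ctsk* (0.92) were among those that rose. *Calcr*, *Oscar* and *Itgb3* did not pass. A gene is said to have risen or fallen where limma's adjusted p, by Benjamini-Hochberg over all tested probe sets, was under 0.05. In bulk RNA, fewer cells of a type and less RNA per cell cannot be told apart. The table holds no detection calls, so a dim value may be close to background, and levels of different genes are not compared because each probe set has its own brightness.

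Promoter sequence was given by RefSeq (GRCm38.p6) for 7 of the 10 genes, with 8 start sites, and not for *Mmp2*, *Mmp9* and *Mmp19*. The 250 bases before each start were searched on both strands for the AP-1 motif TGAGTCA, which reads TGACTCA on the other strand, and for the Smad motif CAGAC. The windows below are those of the MMP and the TIMP with the largest rise and of the 2 MMPs that held the AP-1 motif, one of which is the MMP with the largest fall. Capitals mark the AP-1 motif.
*Mmp14*, chr14:54431348-54431597, plus strand: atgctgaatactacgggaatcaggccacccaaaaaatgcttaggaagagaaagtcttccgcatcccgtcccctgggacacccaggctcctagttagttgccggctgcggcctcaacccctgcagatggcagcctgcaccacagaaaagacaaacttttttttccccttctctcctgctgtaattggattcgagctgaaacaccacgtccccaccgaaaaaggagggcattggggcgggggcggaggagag
*Timp3*, chr10:86300162-86300411, plus strand: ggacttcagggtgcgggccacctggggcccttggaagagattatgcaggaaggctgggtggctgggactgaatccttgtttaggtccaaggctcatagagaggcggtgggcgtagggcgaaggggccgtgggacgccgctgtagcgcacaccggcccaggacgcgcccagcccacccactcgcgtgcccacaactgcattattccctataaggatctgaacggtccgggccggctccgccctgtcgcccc
*Mmp12*, chr9:7347124-7347373, plus strand: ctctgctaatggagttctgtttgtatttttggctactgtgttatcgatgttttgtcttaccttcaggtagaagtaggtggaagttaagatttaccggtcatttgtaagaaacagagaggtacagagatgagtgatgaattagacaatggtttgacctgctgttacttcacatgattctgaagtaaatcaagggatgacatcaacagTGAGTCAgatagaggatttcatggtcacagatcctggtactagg
*Mmp13*, chr9:7272264-7272513, plus strand: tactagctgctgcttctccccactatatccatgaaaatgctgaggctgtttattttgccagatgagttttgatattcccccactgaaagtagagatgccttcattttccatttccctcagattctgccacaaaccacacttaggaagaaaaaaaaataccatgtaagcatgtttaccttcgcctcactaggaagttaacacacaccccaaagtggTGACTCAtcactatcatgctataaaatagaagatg

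Among the windows of these genes, 2 of 8 held the AP-1 motif, against 4.46% of the 32851 RefSeq windows of the same length. In *Mmp13* it began 35 bases before the start and was read on the minus strand, and in *Mmp12* it began 44 bases before the second of 2 annotated starts. The Smad motif was found in 1 window, that of *Mmp8*, 205 bases before its start, against 42.2% of all windows. No 2 matches overlapped. A match describes the letters only and binding was not measured on these arrays.

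With rGDF11, 4 of the 10 genes rose and 5 fell, and *Timp2* did not pass the test. The rising genes were *Mmp14*, *Mmp2*, *Timp3* and *Timp1*. The falling genes were all MMPs, namely *Mmp12*, *Mmp8*, *Mmp13*, *Mmp9* and *Mmp19*. Across all tested probe sets, 16.0% passed in either direction, 7.31% as higher and 8.64% as lower, beside 9 of these 10 genes, which were picked with earlier results of the data known. The median log2 fold change of the 10 genes was −0.28, beside 0.03 over all genes read alone by a probe set. The methods' threshold, a fold change of 1.5 with an unadjusted p under 0.01, was applied throughout to limma's p. By it, 3 of the 10 genes were higher and 4 lower, against 2.06% and 2.96% of the tested probe sets. The groups did not overlap for any of the 10 genes, with 4 higher and 6 lower. Such a separation was shown by 32.9% of the tested probe sets, 16.4% higher and 16.5% lower, and the exact two-sided permutation p was 0.1 for each gene, the smallest that 3 arrays against 3 allow.

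**Figure D1:**
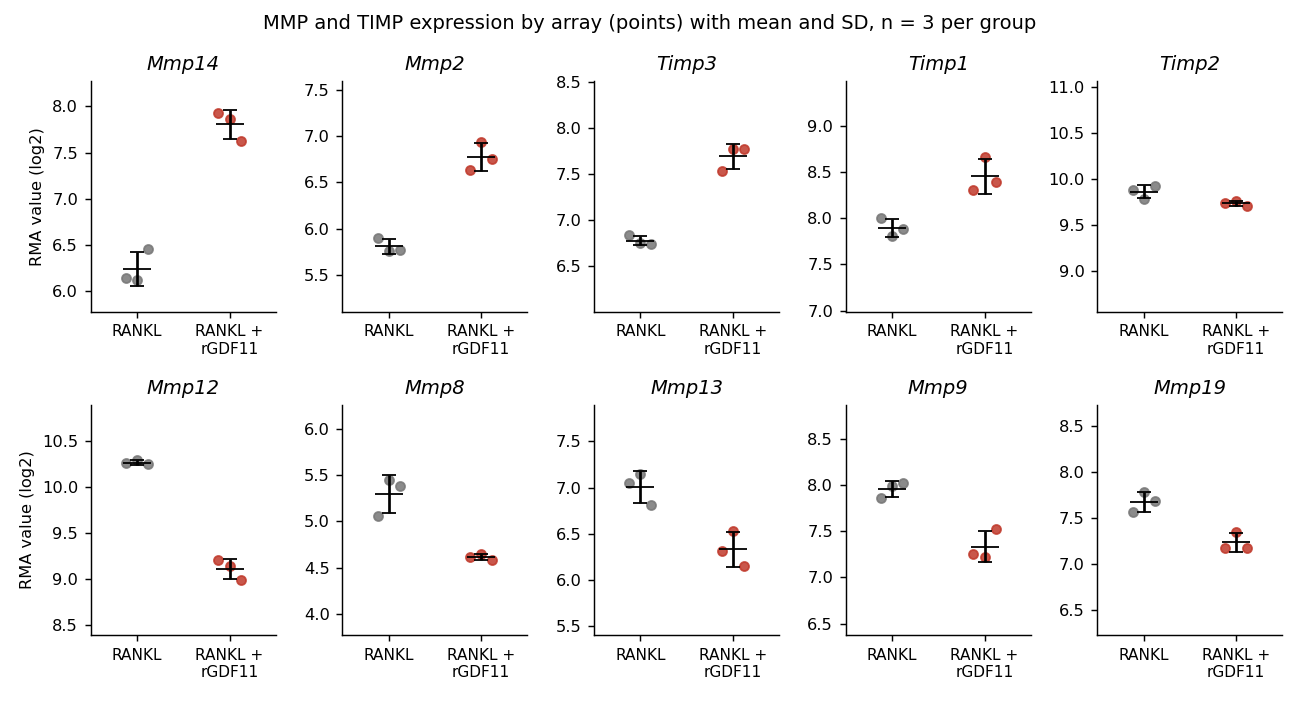
RMA values (log2, vertical axis) of the 10 genes on vehicle arrays (RANKL, grey) and rGDF11 arrays (red); each point is an array, black bars give mean and SD (3 arrays), and every panel spans the same log2 range. *Mmp14* moved most, from a mean of 6.24 to 7.81, and the groups of *Timp2* lie only 0.02 apart.

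*Mmp14*, the membrane-anchored collagenase that activates other MMPs at the cell surface, rose most among the 10 genes. Its log2 values were 6.14, 6.12 and 6.45 on the vehicle arrays and 7.93, 7.87 and 7.63 on the rGDF11 arrays. All rGDF11 arrays lay at least 1.17 above the highest vehicle array. The mean rose from 6.24 ± 0.19 to 7.81 ± 0.16 (SD, n = 3 arrays per group), a 2.97-fold difference with a log2 fold change of 1.57 and a standard error of 0.12 (limma, adjusted p = 9.91e-05). Only 0.568% of the tested probe sets had a larger change in either direction. On vehicle arrays *Mmp14* was near the median of the tested rows (6.15), with 6.14 and 6.12 just below it.

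*Mmp2*, gelatinase A, whose precursor is a substrate of MMP14, moved the same way. It read 5.90, 5.75 and 5.77 on vehicle arrays and 6.63, 6.94 and 6.75 on rGDF11 arrays, with 0.74 between the groups. This was a 1.96-fold rise (log2 fold change 0.97, 95% confidence interval 0.76 to 1.18; limma, adjusted p = 0.000324). *Mmp2* is dim here, with its vehicle values below the array medians, and its mean over all arrays lay above the median of the tested rows (6.15) only through the rGDF11 arrays.

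The TIMPs did not move as one. *Timp3*, the inhibitor that stays bound to the matrix and also blocks some ADAM proteases, read 6.84, 6.75 and 6.74 on vehicle arrays and 7.53, 7.77 and 7.77 on rGDF11 arrays. The lowest rGDF11 array stood 0.69 above the highest vehicle array, and the rise was 1.88-fold (log2 fold change 0.91, 95% confidence interval 0.72 to 1.11; limma, adjusted p = 0.000267). *Timp1*, which binds pro-MMP9, read 8.005, 7.81 and 7.88 without rGDF11 and 8.31, 8.67 and 8.39 with it. Its rise was smaller, 1.47-fold, with 0.30 between the groups (log2 fold change 0.56, 95% confidence interval 0.31 to 0.80; limma, adjusted p = 0.00962). By the methods' t-test it did not pass after Benjamini-Hochberg adjustment (adjusted p = 0.0700), and it stayed under the fold change of 1.5. *Timp2*, the partner of MMP14 and MMP2, read 9.88, 9.78 and 9.92 on vehicle arrays and 9.74, 9.76 and 9.70 on rGDF11 arrays. The rGDF11 arrays were all lower, but by 0.02 at the nearest point, and the log2 fold change of −0.13 did not pass (95% confidence interval −0.27 to 0.02; limma, adjusted p = 0.264). The interval leaves out a change of 1.5-fold in either direction.

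**Figure D2:**
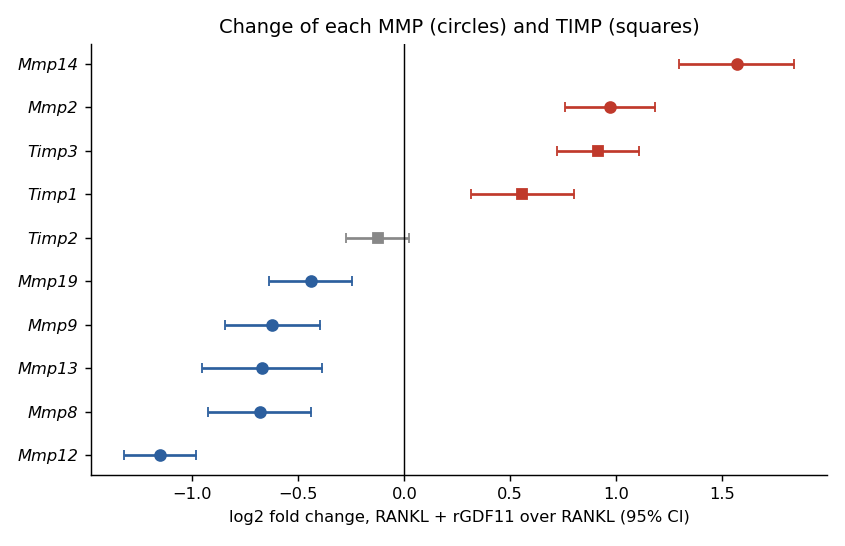
Horizontal axis, log2 fold change of rGDF11 arrays over vehicle arrays, for each MMP (circles) and TIMP (squares) with 95% confidence intervals from limma, 3 arrays per group; red rose, blue fell and grey did not pass. *Mmp14* and *Mmp2* stand at 1.57 and 0.97, the other 5 MMPs lie between −1.15 and −0.44, and the interval of *Timp2* spans 0.

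*Mmp12*, macrophage elastase, had the largest fall among the MMPs. It read 10.26, 10.29 and 10.24 on vehicle arrays, a spread of 0.02 (SD), and 9.21, 9.14 and 8.99 on rGDF11 arrays. The groups stood 1.04 apart. The fall was 2.22-fold (log2 fold change −1.15, standard error 0.07; limma, adjusted p = 5.10e-05), and 1.31% of the tested probe sets had a larger change. Macrophage markers were also lower in part, with 6 of 10 falling and 1 rising, beside 8.64% and 7.31% of the tested probe sets. *Fcgr1* (log2 fold change −1.41) and *Cd14* (−1.06) fell furthest. By the methods' t-test 5 of the markers were lower and 1 higher. At the methods' threshold, with its fold change of 1.5, 2 were lower and 0 higher. *Csf1r* (−0.08, limma, adjusted p = 0.509) and *Lyz2* (−0.02, adjusted p = 0.886 from the same fit) did not pass. Their part in the fall of *Mmp12* was not tested.

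The 2 collagenases among the 5 genes that fell were *Mmp13* and *Mmp8*. *Mmp13*, collagenase 3, read 7.05, 7.15 and 6.81 on vehicle arrays and 6.31, 6.53 and 6.15 on rGDF11 arrays, with 0.28 between the groups. This was 1.59-fold lower (log2 fold change −0.67, 95% confidence interval −0.95 to −0.39; limma, adjusted p = 0.00791), and it did not pass by the methods' t-test (adjusted p = 0.0713). *Mmp8*, the collagenase of neutrophil granules, read 5.06, 5.45 and 5.38 without rGDF11 and 4.62, 4.65 and 4.58 with it. The fall was 1.60-fold (log2 fold change −0.68, standard error 0.10; limma, adjusted p = 0.00364). *Mmp8* alone of the 10 genes had a mean below the median of the tested rows, and its rGDF11 arrays had an SD of 0.03.

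*Mmp9*, gelatinase B, read 7.86, 7.99 and 8.02 on vehicle arrays and 7.25, 7.22 and 7.53 on rGDF11 arrays, the third rGDF11 array being nearest to the vehicle group at a gap of 0.33. It was 1.54-fold lower (95% confidence interval of the log2 fold change −0.85 to −0.40; limma, adjusted p = 0.00376). *Mmp19*, a broad-range MMP found in myeloid cells, read 7.56, 7.78 and 7.68 on vehicle arrays and 7.18, 7.35 and 7.17 on rGDF11 arrays. Its fall was the smallest of the 5, 1.36-fold (log2 fold change −0.44, standard error 0.08; limma, adjusted p = 0.00992), with 0.21 between the groups and an adjusted p of 0.0543 by the methods' t-test.

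Since *Mmp8* and *Mmp9* are stored in neutrophil granules, neutrophil markers were read beside them. Of 15 markers, 4 rose, *Cxcr2* (log2 fold change 1.37), *Ngp* (from 8.28 to 9.28), *Lcn2* (0.73) and *S100a8* (0.71), none fell by limma's adjusted p and 11 did not pass. Of all tested probe sets, 7.31% rose and 8.64% fell. At an unadjusted p under 0.05, 6 of the markers were higher and 2 lower, and by the methods' t-test 4 were higher and 0 lower. The mean log2 level of the list was 6.10 to 6.12 on vehicle arrays and 6.35 to 6.37 on rGDF11 arrays, and 7 of the 15 had means above the median of the tested rows. The defining genes *Ly6g* (4.71 on vehicle arrays and 4.48 on rGDF11 arrays) and *Mpo* (6.28 and 6.19) did not pass. *Ctsg* (log2 fold change −0.37; limma, adjusted p = 0.0545) and *Csf3r* (−0.27, adjusted p = 0.0696 from the same fit) were lower on all rGDF11 arrays and did not pass. *Elane* (0.26, adjusted p = 0.0650 from limma) was higher on all rGDF11 arrays and did not pass either. Of the 15 markers, 7 were higher and 2 lower without overlap of the groups, beside 16.4% and 16.5% of the tested probe sets. The part of neutrophils in the falls of *Mmp8* and *Mmp9* was not tested.

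For *Mmp2*, *Timp3* and *Mmp13*, which stromal cells and osteoblasts also make, markers of those cells were read. Of 11 fibroblast and stromal markers, 4 rose, 2 by the methods' t-test, and 7 did not pass. Over all tested probe sets, 7.31% rose and 8.64% fell. The risers were *Col1a2* (log2 fold change 0.65), *Col1a1* (0.63), *Pdgfrb* (0.48) and *Prrx1* (0.41). The list's mean log2 level was 5.55 to 5.75 on vehicle arrays and 5.83 to 5.87 on rGDF11 arrays, with 3 of 11 markers above the median of the tested rows. *Pdgfra* (−0.15), *Dcn* (−0.26) and *Lum* (0.07) did not pass. At an unadjusted p under 0.05, 5 of these 11 markers were higher and 0 lower. Without overlap of the groups, 5 were higher and 1 lower (*Dcn*), beside 16.4% and 16.5% of the tested probe sets. Of 5 measured osteoblast markers, *Alpl* (0.44) rose and 4 did not pass, at a mean log2 level of 4.78 to 4.99 without rGDF11 and 5.05 to 5.12 with it. Of 7 endothelial markers, *Pecam1* (0.28) rose and *Kdr* (−0.50) and *Vwf* (−0.34) fell, at 5.66 to 5.71 without rGDF11 and 5.59 to 5.64 with it. No osteoblast or endothelial marker passed at the methods' threshold. The part of these cells in the changes of *Mmp2*, *Timp3* and *Mmp13* was not tested. Nor was it tested for any other of the 10 genes, *Mmp14* and *Timp1* included.

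Partner genes changed unequally within the same arrays. The log2 value of an inhibitor, or of an activating protease, was subtracted from that of its partner on each array. Only the change of such a difference between groups can be read, because the 2 probe sets differ in brightness. *Mmp14* minus *Timp2* was −3.74, −3.66 and −3.47 on vehicle arrays and −1.82, −1.89 and −2.08 on rGDF11 arrays, a change of 1.69 (standard error 0.11). *Mmp2* minus *Timp2* was −3.98, −4.03 and −4.15 without rGDF11 and −3.11, −2.81 and −2.95 with it, a change of 1.09 (standard error 0.10). Both proteases therefore rose relative to *Timp2*. *Mmp14* rose less clearly relative to *Timp3*, with −0.70, −0.63 and −0.29 against 0.40, 0.10 and −0.15, a change of 0.66 (standard error 0.20). *Mmp9* minus *Timp1* went the other way, from −0.14, 0.18 and 0.14 to −1.06, −1.44 and −0.86, a change of −1.18 (standard error 0.20). Inhibitor and gelatinase thus moved apart in opposite directions.

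The precursors of MMP2 and MMP13 can both be activated by MMP14. *Mmp13* minus *Mmp14* went from 0.91, 1.02 and 0.36 to −1.62, −1.34 and −1.48, a change of −2.24 (standard error 0.22), the largest of the 6 differences computed. *Mmp2* minus *Mmp14* went from −0.24, −0.37 and −0.68 to −1.29, −0.92 and −0.87, a change of −0.60 (standard error 0.19), so *Mmp2* rose less than *Mmp14*. The groups did not overlap in any of the 6 differences. The exact two-sided permutation p was 0.1 for each, the smallest possible, before any adjustment over the 6. For *Mmp14* minus *Timp2*, *Mmp2* minus *Timp2*, *Mmp9* minus *Timp1* and *Mmp13* minus *Mmp14* this was fixed in advance. There both genes had already separated the groups without overlap, in opposite directions. No difference changed direction when an array was left out, which the lack of overlap alone ensures.

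**Figure D3:**
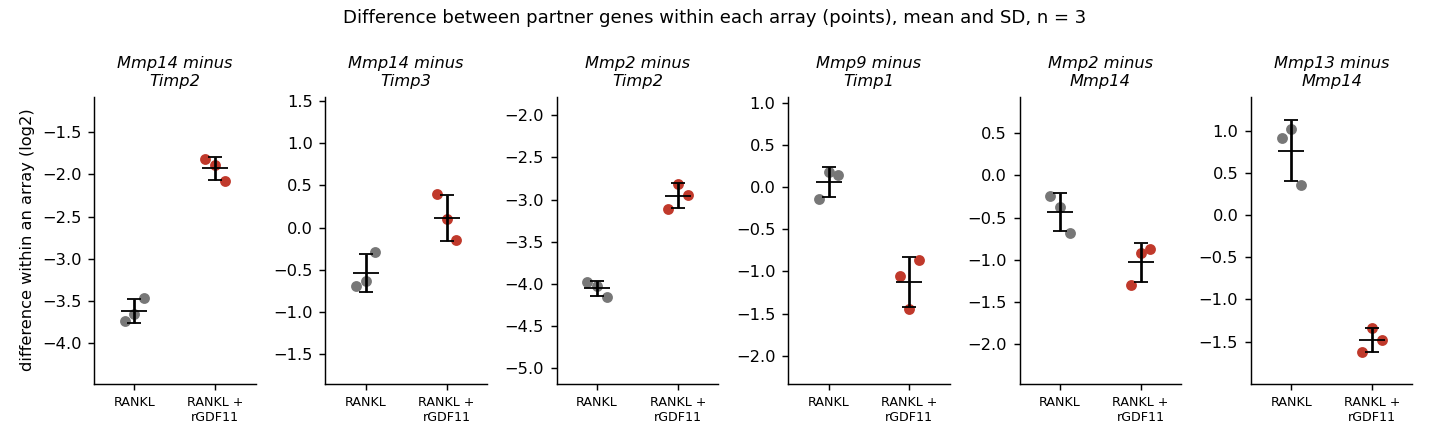
Difference of log2 RMA values between partner genes within each array (vertical axis, same span in every panel) for vehicle arrays (RANKL, grey) and rGDF11 arrays (red), with the mean and SD of 3 arrays. *Mmp14* minus *Timp2* moved up by 1.69 and *Mmp9* minus *Timp1* moved down by 1.18; the height of a panel has no meaning because probe sets differ in brightness.

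Most of the MMP family lay outside these changes. Of 22 MMPs that a probe set read alone, the 15 not among the 10 genes all had means below the median of the tested rows, and limma called none of them. None reached an unadjusted p under 0.05 and none passed the methods' t-test, and their log2 fold changes ran from −0.15 to 0.28. *Timp4*, the remaining inhibitor of the TIMP family, read 4.46 ± 0.22 on vehicle arrays and 4.54 ± 0.12 on rGDF11 arrays (limma, adjusted p = 0.741).

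*Mmp12*, *Mmp13* and *Mmp8* belong to a cluster of MMP genes on chromosome 9, where RefSeq lists 10 measured MMP genes in the order *Mmp13*, *Mmp12*, *Mmp1b*, *Mmp3*, *Mmp1a*, *Mmp10*, *Mmp8*, *Mmp27*, *Mmp20* and *Mmp7*. *Mmp13*, *Mmp12* and *Mmp8* fell and the other 7 did not pass. *Mmp1b*, next to *Mmp12*, moved by 0.02 on the log2 scale (limma, adjusted p = 0.883) and the neighbours of *Mmp8*, *Mmp10* and *Mmp27*, by 0.06 (adjusted p = 0.781 from the same fit) and −0.15 (adjusted p = 0.466). *Mmp27* was the only one of these 7 genes with a negative log2 fold change. These 7 genes and *Mmp8* were dim, with means below the median of the tested rows, which leaves less room for a fall to show than in *Mmp12* and *Mmp13*.

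**Figure D4:**
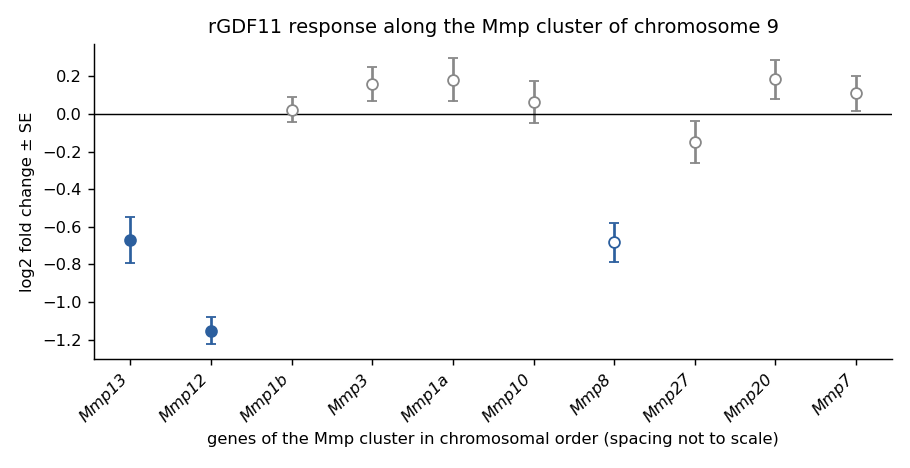
Vertical axis, log2 fold change of rGDF11 arrays over vehicle arrays with standard errors, of the 10 measured MMP genes of the chromosome 9 cluster, in chromosomal order without distances; blue fell, grey did not pass, and open circles mark genes with a mean below the median of the tested rows. *Mmp13*, *Mmp12* and *Mmp8* lie at −0.67, −1.15 and −0.68, and the other 7 between −0.15 and 0.18.

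Around the MMPs, 2 of 6 activators and 3 of 7 receptors and docking proteins rose, and limma called none of 5 inhibitors, where an unadjusted p under 0.05 gave 1 higher and 1 lower. Of 46 further measured genes of pericellular proteolysis, the cutting of matrix at the cell surface, 5 rose, none fell by limma's adjusted p and 41 did not pass. Their median log2 fold change was 0.08, beside 0.03 over all genes. Of all tested probe sets, 7.31% passed as higher and 8.64% as lower, so risers are found widely outside this list too. At an unadjusted p under 0.05, 8 of the 46 genes were higher and 3 lower. *Plau*, the urokinase that generates plasmin, an activator of several pro-MMPs, read 9.86, 9.89 and 9.81 on vehicle arrays and 11.22, 11.36 and 11.23 on rGDF11 arrays, a 2.67-fold rise (limma, adjusted p = 1.69e-05). Its receptor *Plaur* rose 1.59-fold (adjusted p = 0.000381 from limma). *Furin*, the convertase that removes the propeptide of MMP14, read 9.50, 9.56 and 9.67 on vehicle arrays and 10.63, 10.58 and 10.62 on rGDF11 arrays and rose 2.04-fold (limma, adjusted p = 5.60e-05). Both activators were thus well separated between the groups.

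*Itgav*, the αv integrin chain, rose 2.12-fold (limma, adjusted p = 2.52e-05). The integrin gene *Itgb3*, of the same list, did not pass (log2 fold change 0.18, adjusted p = 0.220 from limma). *Cd44*, a docking receptor of MMP9 and MMP14, rose 1.17-fold (adjusted p = 0.0391 from limma). The call of *Cd44* was lost whichever array was left out (limma, adjusted p = 0.0778 to 0.111). *Bsg*, an inducer of MMPs, did not pass (log2 fold change −0.02; limma, adjusted p = 0.867). *Reck*, a membrane-anchored MMP inhibitor, read 5.76, 5.71 and 5.69 without rGDF11 and 5.51, 5.56 and 5.61 with it, lower on all rGDF11 arrays by a small margin that did not pass (log2 fold change −0.16; limma, adjusted p = 0.132). *Lrp1*, the endocytic receptor that clears MMPs and TIMPs, was close to the threshold at −0.25 (adjusted p = 0.0529 from limma). Of 13 ADAM and ADAMTS proteases, limma called none, while the methods' t-test called 1, *Adam8*, as lower (log2 fold change −0.16). At an unadjusted p under 0.05, 1 of the 13 was higher and 1 lower.

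**Figure D5:**
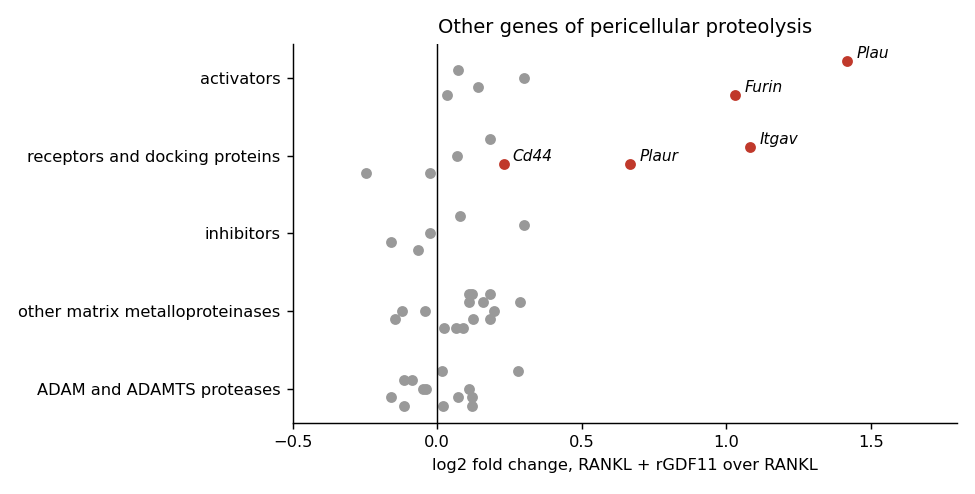
Horizontal axis, log2 fold change of rGDF11 arrays over vehicle arrays, for 46 further genes of pericellular proteolysis in 5 groups, 1 point per gene, 3 arrays per group; red points rose and grey points did not pass. The red points are *Plau*, *Itgav*, *Furin*, *Plaur* and *Cd44*, at 1.42, 1.08, 1.03, 0.67 and 0.23.

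The genes most like these in pattern were sought over the 6 arrays among 9918 genes with a mean above the median of the tested rows. Pearson correlations of the 2 most alike genes ran from 0.978 to 0.9995, a description over 6 points in 2 groups in which any gene that differs between the groups correlates. *Mmp14* was most like *Nrip1* and *Disc1*, and *Mmp2* most like *Csnk1g1* and *Thbs2*, thrombospondin 2, whose log2 fold changes were 0.08 and 0.84, since a correlation does not read the size of a change. *Timp3* was nearest to *Cd207* and *Eml4*, and *Timp1* to *Prmt3* and *Grem1*. Among the falling genes, *Mmp12* was nearest to *Idh1*, which had a log2 fold change of −1.29, and *Mmp9* to *Pmaip1* (−0.62). *Mmp13* was nearest to *Tusc3*, *Mmp8* to *Wdfy2* and *Mmp19* to *Psmd6*. *Timp2* had the weakest likeness, 0.982 with *Dnase2a*.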

How the data were processed

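Total RNA of 6 BMM samples (3 vehicle, 3 rGDF11, grouped by the labels' treatment) was read on Affymetrix Mouse Gene 1.0 ST arrays. The deposited log2 values were made by the authors by RMA, with background correction, normalization across arrays and summary into probe sets, using Transcriptome Analysis Console 3.0, also named in the submitters' processing notes, and Expression Console. RMA compresses the changes of dim genes. Of 35556 probe sets, 21789 were paired with 1 symbol by the platform annotation, and the 23410 with at least 1 symbol were tested two-sided in R 4.3.3 with lmFit and eBayes of limma 3.58.1, with Benjamini-Hochberg adjustment. The fit was tested on simulated arrays. Differences within arrays were compared by exact permutation tests.

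The genes followed, the gene lists and the rule for named genes (all 10 genes, listed genes that passed with *Timp4*, *Reck* and *Bsg*, defining markers, and the 2 most alike genes of each) were chosen with earlier results of these data known. *Lrp1*, *Adam8*, *Adam19*, *Pcsk6*, *Tfpi2*, *Ctsg*, *Csf3r*, *Elane*, *Calcr*, *Oscar*, *Itgb3* and the neighbours of *Mmp12* and *Mmp8* were named after their values were seen. Listed genes without a probe set of their own, such as *Mmp15*, *Runx2* and *Bglap*, were left out of the counts. Alternatives covered the rows tested, dim rows, normalization, spread, the methods' t-test, thresholds, a replicate block and each array left out. Protein sequences were not used here. Arrays have no depth, and 3 per group limit the precision.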

Additional observations from a re-analysis of the deposited data

How the results depend on the processing

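Over 17 alternatives (16 for *Mmp8*, which a filter at the median removes), no gene of the 10 changed direction, and *Mmp14*, *Mmp2*, *Timp3*, *Mmp12*, *Mmp9* and *Mmp8* kept their calls. Under the filters on dim rows this is no support for *Mmp8* or *Mmp2*. *Mmp8* lay above the 25th percentile of the tested row means (4.69) on its vehicle arrays only. The filter itself used the 25th percentile of single array values, which is not given here. *Mmp2* passed the median (6.15) only through its rGDF11 arrays. The methods' t-test ended the calls of *Mmp13* (−0.67), *Mmp19* (−0.44) and *Timp1* (0.56), leaving 3 genes higher and 3 lower, and the fold change of 1.5 those of *Mmp19* (−0.44) and *Timp1* (0.56). Leaving out each array in turn kept 4 higher and 5 lower, with *Mmp14* at 1.51 to 1.68 and *Mmp12* at −1.20 to −1.09. Listed genes of pericellular proteolysis that fell, 0 as reported, were 2 above the median, 1 above the 25th percentile, 1 with arrays centred, 2 with a trend in the spread and 1 by the methods' t-test, each time *Lrp1* or *Adam8* or both. Of the 5 that rose, *Cd44* alone lost its call, with all rows tested (limma, adjusted p = 0.0731), arrays centred (0.103), the fold change of 1.5, an adjusted p under 0.01, the replicate block (0.0574) and each array left out (0.0778 to 0.111). Calls as higher were gained by *Adam19* above the median, and by *Pcsk6* and *Tfpi2* without rGDF11 replicate 2. Each of these settings gave 6 higher. With the replicate number as a block, 4 of the 10 genes were higher and 5 lower, and all tested rows gave 1676 higher and 1943 lower against 1712 and 2023. The numbers were shared without a sign of pairing (correlations of deviations 0.0635, 0.335 and −0.000832), and not every sample correlated best with its own number. No gene of the 10 has a further probe set. Groups of 3 arrays were too small to be tested for outlying arrays.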
